A study of Mus musculus with 12 samples.

Results

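Cxcl12, a secreted chemokine, and its receptors Cxcr4 and Ackr3 were followed as 3 genes of the 51912 in a table of RNA levels from primary mouse cortical neurons, dissected from C57BL/6J embryos at E17.5. The members were taken by gene name, 1 row each. The receptors were chosen by their measured RNA, which was higher with erinacine S at 48 h, so that difference is described below without a test. The 12 libraries form 4 groups of 3: DMSO, the solvent control, for 16 h, erinacine S at 1 µg/mL for 16 h, DMSO for 48 h and erinacine S at 1 µg/mL for 48 h. Erinacine S is made by mycelium of Hericium erinaceus, a mushroom, and was added soon after the neurons had been moved from plating medium with serum to a maintenance medium with B27, which all groups shared. The meninges had been removed before the cortex was dissociated. The libraries of a group are labelled as independent repeats, with no litter, dish or day named, so p-values measure the spread between libraries, which may be technical.

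Cxcl12 is a chemoattractant that in the embryonic brain is made by the meninges, by intermediate progenitors of the cortex and by vessels. It binds Cxcr4, a receptor coupled to inhibitory G proteins that steers migrating interneurons, Cajal-Retzius cells and progenitors. Ackr3, formerly Cxcr7, binds the same chemokine, recruits arrestin, does not signal through G proteins in the usual way, and removes Cxcl12 from the surroundings of the cell, which keeps Cxcr4 responsive in the same neuron.

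In control cultures both receptors were lower at 48 h than at 16 h while the ligand rose. With erinacine S the means of all 3 genes at 48 h stood nearer to their 16 h control levels. The receptors were chosen for that difference. Cxcl12 had a lower treated mean at 16 h too, and its change with time differed between treatments by less than the SE. Levels are given in TPM, transcript abundance scaled to gene length and to the same total in each library, so that genes can be compared. Of the 3, Cxcr4 had the highest level in every library, Ackr3 the next and Cxcl12 the lowest. In DMSO at 16 h, 57.6% of the 15623 genes with a mean of at least 1 TPM lay below Cxcr4, 51.9% below Ackr3 and 28.99% below Cxcl12.

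**Figure D1:**
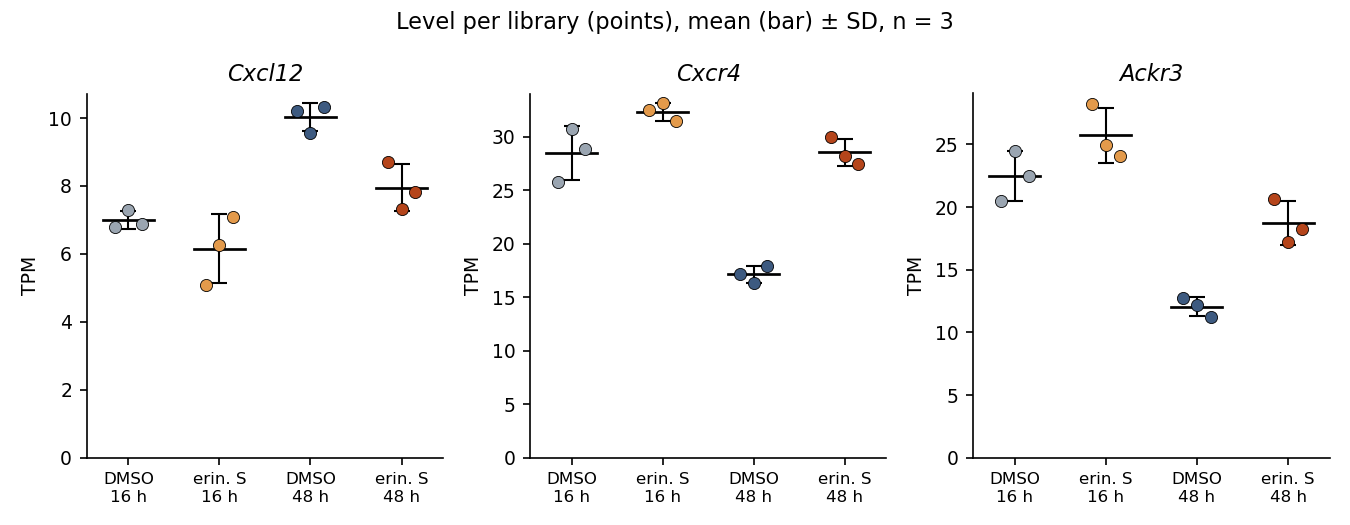
TPM of Cxcl12, Cxcr4 and Ackr3 (vertical axes, TPM) in the 12 libraries by group (horizontal axes). Points are libraries, bars the mean and whiskers the SD (n = 3). Cxcr4 is between 16.3 and 17.9 TPM in DMSO at 48 h and above 25 TPM in the other groups.

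Cxcr4 (ENSMUSG00000045382) lies on the minus strand of chromosome 1 from 128588199 to 128592293 of GRCm38, as the deposited table gives it, with 2 protein-coding transcripts of 2 exons each in the GENCODE M21 annotation. Ackr3 (ENSMUSG00000044337) lies on the plus strand of the same chromosome, 90203980 to 90216751, with 2 protein-coding transcripts. Cxcl12 (ENSMUSG00000061353) lies on the plus strand of chromosome 6, 117168535 to 117181367, and has 3 protein-coding transcripts, for which the table gives 1 value. No other gene of the table overlaps any of the 3 on either strand.

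The 250 bases before the start site of each gene are shown because the receptors moved together and the ligand against them. They come from RefSeq on GRCm38.p6, in which all 3 genes have an entry, at chr1:128592300-128592549 (minus strand), chr1:90203730-90203979 and chr6:117168285-117168534 (plus strand), and are written 5′ to 3′ with matches to the motifs named after them in capitals.
Cxcr4: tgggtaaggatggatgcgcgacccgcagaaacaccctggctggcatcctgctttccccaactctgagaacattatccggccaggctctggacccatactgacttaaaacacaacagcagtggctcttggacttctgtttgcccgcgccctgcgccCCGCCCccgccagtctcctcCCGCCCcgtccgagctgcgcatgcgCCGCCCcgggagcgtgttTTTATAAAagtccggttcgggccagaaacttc
Ackr3: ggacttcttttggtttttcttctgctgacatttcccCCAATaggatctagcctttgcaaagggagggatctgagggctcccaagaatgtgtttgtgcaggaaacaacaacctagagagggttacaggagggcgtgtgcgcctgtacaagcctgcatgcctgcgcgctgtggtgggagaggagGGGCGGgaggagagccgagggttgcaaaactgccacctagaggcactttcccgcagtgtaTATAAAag
Cxcl12: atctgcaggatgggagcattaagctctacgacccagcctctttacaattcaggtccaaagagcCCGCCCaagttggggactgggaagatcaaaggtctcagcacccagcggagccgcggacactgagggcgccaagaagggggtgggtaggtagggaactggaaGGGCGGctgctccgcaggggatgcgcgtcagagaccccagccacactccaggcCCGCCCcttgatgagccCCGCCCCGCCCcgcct
Both strands were searched for the TATA box, which was spelled TATAAA, and for the GC box, which was spelled GGGCGG. The CCAAT box was searched by the letters of its name. The core of the hypoxia response element was searched as ACGTG, the site of the transcription factor AP-1 as TGANTCA, and the cAMP response element as TGACGTCA. The letters TATAAA were in both receptor promoters, but at different distances from the start. In Cxcr4 they matched on both strands, overlapping, at 32 and 30 bases before it, and in Ackr3 at 8 bases. They were not in the promoter of Cxcl12, and 12.37% of 32851 RefSeq promoters of this length hold them. The GC box, in 32.74% of promoters, was found 3 times in Cxcr4, 1 time in Ackr3 and 5 times in Cxcl12. Of the 3, only Ackr3 has a CCAAT box, at 214 bases, found in 33.85% of promoters. No match of 1 motif overlaps a match of another, but GC boxes overlap each other at 16 and 11 bases before the start of Cxcl12. G and C make up 61.2% of the window of Cxcr4, 54.0% of that of Ackr3 and 64.4% of that of Cxcl12, where the median promoter has 52.4%. None of these windows holds ACGTG (in 16.6% of promoters), TGANTCA (in 6.75%) or TGACGTCA (in 1.55%). A match is a description of the letters and not a measured binding site.

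The cultures carried neuronal RNA in every library. Summed over the list, the projection neuron markers, led by Tubb3, stood at 4013 to 5442 TPM, and the interneuron markers, led by Sst, at 1141 to 2348 TPM. Tubb3 is a gene of neurons in general, so the first sum is not particular to projection neurons. The number of genes at 1 TPM or more was 15219 to 15789 per library, mitochondrially encoded genes made up 5.12% to 7.70% of all TPM, and the depth of sequencing is unknown. Erinacine S 48 h replicate 1 stood apart: against the other 5 libraries of 48 h it was below their range in 10 of 12 cell type marker lists and above it in the other two, those of interneurons and Cajal-Retzius cells. The 48 h differences of the members are given with and without it.

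The passage of time in control cultures was measured by the 6 DMSO libraries. These share the DMSO 48 h libraries with the comparison that picked the receptors, and low values there favour the choice, so for Cxcr4 and Ackr3 the change with time is a description with no test. Cxcr4 stood at 25.7, 30.7 and 28.9 TPM in the 3 DMSO libraries of 16 h and at 17.2, 16.3 and 17.9 TPM in those of 48 h. Every 48 h value lay below every 16 h value, and the 48 h mean was 60.2% of that at 16 h. On the log2(TPM + 1) scale the difference for Cxcr4 was -0.70 ± 0.08 (SE, n = 3 each). Ackr3 stood at 20.5, 24.5 and 22.5 TPM at 16 h and at 12.7, 12.2 and 11.2 TPM at 48 h. Again the groups did not overlap, and the level at 48 h was 53.6% of that at 16 h, a log2 difference of -0.85 ± 0.10 (SE). Cxcl12 moved the other way, from 6.79, 7.29 and 6.88 TPM to 10.2, 9.56 and 10.3 TPM. Its 48 h libraries all lay above those of 16 h, at 144% of the 16 h mean, and it rose by 0.47 ± 0.11 (SE; limma, adjusted p = 0.00926). Calls were common in this comparison: 32.7% of the 15623 genes tested passed, 16.1% higher and 16.6% lower, and the groups did not overlap for 26.4% of genes with 48 h lower and 24.1% with 48 h higher. The central 90% of genes lay between -0.64 and 0.70, with both receptors below that span and Cxcl12 inside it. RNA of the whole culture was measured, so fewer cells of a type and less RNA per cell cannot be told apart.

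At 48 h the receptors were higher and the ligand was lower with erinacine S. These values are a description, since the receptors were chosen for them. Cxcr4 stood at 29.9, 28.2 and 27.4 TPM with erinacine S, against 17.2, 16.3 and 17.9 TPM in DMSO. The lowest treated library was well above the highest control, and the group mean of 28.5 ± 1.29 TPM was 166.5% of the control mean of 17.1 ± 0.814 TPM (SD, n = 3 each). It equals 100.3% of the DMSO level at 16 h, and the treated 48 h libraries lie inside the range of the DMSO 16 h libraries. The log2 fold change against DMSO at 48 h was 0.70 ± 0.08 (SE). Ackr3 stood at 20.7, 17.2 and 18.2 TPM with erinacine S, against 12.7, 12.2 and 11.2 TPM in DMSO. Here too the groups did not overlap, with a treated mean of 155% of the control mean and a log2 fold change of 0.59 ± 0.10 (SE). The treated mean of Ackr3 was 83.2% of its DMSO level at 16 h, and only replicate 1, at 20.7 TPM, reached the lowest of the DMSO 16 h libraries. Cxcl12 stood at 8.70, 7.34 and 7.82 TPM with erinacine S, below all of the DMSO values of 9.56 to 10.3 TPM. Its mean was 79.2% of the control mean, the log2 fold change was -0.30 ± 0.11 (SE), and the treated libraries lay just above the DMSO 16 h range of 6.79 to 7.29 TPM. For all genes at this time, 10.5% had non-overlapping groups with erinacine S higher and 8.74% with it lower. In the comparison that picked the receptors 0.134% of the genes tested passed, 3 upward (0.0192%) and 18 downward (0.115%). By the adjusted p that did the choosing, and so with no test, Ackr3 lay just inside the threshold with the values above. Just outside it was the semaphorin gene Sema4a, whose mean was 31.8 ± 2.33 TPM for DMSO against 51.9 ± 7.97 TPM in treated libraries (SD).

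Without erinacine S 48 h replicate 1, the library low in glial markers, the log2 fold change at 48 h was 0.67 for Cxcr4, 0.52 for Ackr3 and -0.36 for Cxcl12. With replicates 2 and 3 alone the differences of the receptors were thus somewhat smaller and that of the ligand larger.

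At 16 h, in libraries the choice of the genes did not use, the same signs were seen at a smaller size and none of the 3 genes passed. Cxcr4 stood at 32.5, 33.1 and 31.4 TPM with erinacine S against 25.7, 30.7 and 28.9 TPM in DMSO. All treated values lay above all controls, by as little as the step from 30.7 to 31.4 TPM; 2.62% of all genes had non-overlapping groups in this direction. The log2 fold change was 0.18 ± 0.08 (SE, n = 3 each; limma, adjusted p = 1.00), with a 95% interval of 0.01 to 0.35 before adjustment over genes. Ackr3 stood at 28.2, 24.9 and 24.1 TPM against 20.5, 24.5 and 22.5 TPM. Those groups overlapped, and the log2 fold change was 0.19 ± 0.10 (SE; limma, adjusted p = 1.00), with an interval of -0.03 to 0.40. Same-numbered libraries of 16 h were taken as pairs. Read so, Ackr3 was higher with erinacine S in 3 of 3 pairs and Cxcl12 was lower in 2 of 3. Cxcr4 was higher in 3 of 3, which any pairing gives where groups do not overlap. The receptors share these libraries, so their pairs are not separate evidence. With the number as a block within each time the log2 fold change of Ackr3 was 0.19 ± 0.10 (SE; limma, adjusted p = 1.00). Cxcl12 stood at 5.08, 6.27 and 7.10 TPM against 6.79, 7.29 and 6.88 TPM, also overlapping, where the log2 fold change was -0.17 ± 0.11 (SE; interval -0.42 to 0.08; limma, adjusted p = 1.00). By limma 0 of the 15623 genes passed at 16 h (0%), and 201 (1.29%) had an unadjusted p under 0.05, Cxcr4 among them (unadjusted p = 0.0367). The erinacine S effect at 48 h minus that at 16 h was 0.52 ± 0.11 for Cxcr4, 0.41 ± 0.14 for Ackr3 and -0.14 ± 0.16 for Cxcl12 (SE), given without a test because it contains the 48 h difference.

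**Figure D2:**
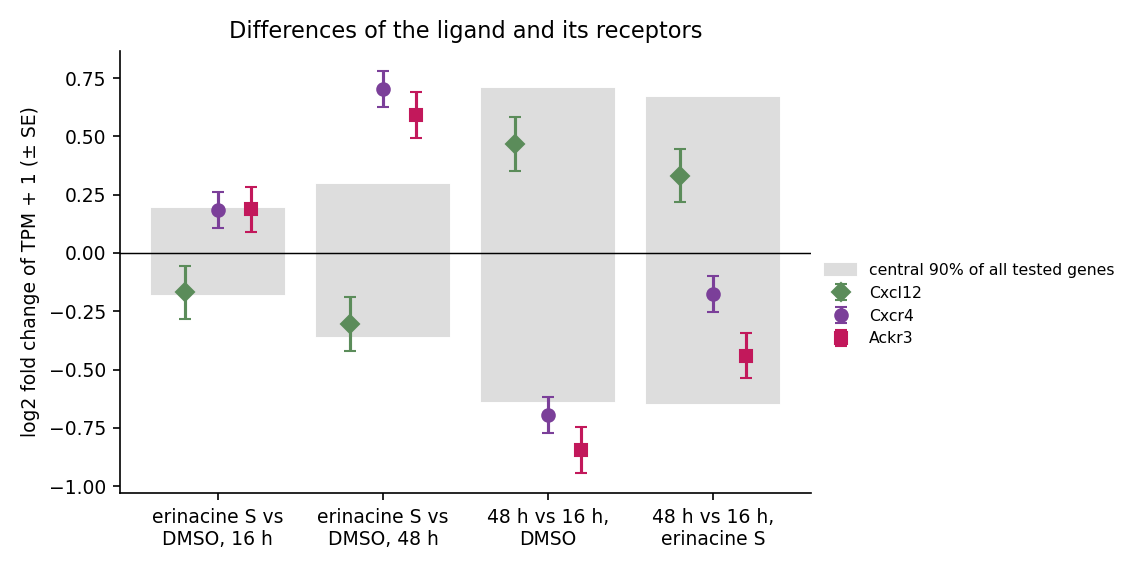
Log2 fold change of TPM + 1 (vertical axis) for Cxcl12, Cxcr4 and Ackr3 in 4 comparisons (horizontal axis), with SE as whiskers. Grey boxes span the central 90% of the 15623 genes tested, and the receptors leave them at 48 h with erinacine S and with time in DMSO.

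Within erinacine S the course from 16 h to 48 h was flatter for both receptors, which were chosen as high in its 48 h libraries. For Cxcl12 it was slightly flatter, with a difference between the courses of -0.14 ± 0.16 (SE), smaller than its SE. Cxcr4 went from a mean of 32.35 to 28.5 TPM, 88.2% of its own 16 h level, where DMSO cultures kept 60.2%. Ackr3 went from 25.7 to 18.7 TPM, 72.7% against 53.6% in DMSO. Cxcl12 went from 6.15 to 7.95 TPM, 129% of its 16 h level against 144% in DMSO. The log2 fold changes within erinacine S were -0.18 ± 0.08, -0.44 ± 0.10 and 0.33 ± 0.11 (SE, n = 3 each), also without a test because they hold the 48 h libraries that picked the receptors. In each of the 3 genes the groups did not overlap, as in 21.2% of all genes with 48 h higher and 23.7% with 48 h lower. Ordered by level, Cxcr4 was highest in erinacine S 16 h, then erinacine S 48 h and DMSO 16 h, which overlapped each other, and lowest in DMSO 48 h, below all others. Ackr3 ran from erinacine S 16 h over DMSO 16 h and erinacine S 48 h to DMSO 48 h, with overlap between each pair of neighbours but the last. Cxcl12 had the reverse order of Ackr3, highest in DMSO 48 h and lowest in erinacine S 16 h, and only the lowest pair of groups, both of 16 h, overlapped.

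The balance between receptor and ligand moved further than either gene alone. The ratio of Cxcr4 to Cxcl12, in TPM, was 4.07 ± 0.241 in DMSO at 16 h and 1.71 ± 0.029 in DMSO at 48 h (SD, n = 3 each). Treated libraries had 5.37 ± 0.991 at 16 h and 3.60 ± 0.212 at 48 h. The ratio of Ackr3 to Cxcl12 was 1.20 ± 0.102 in DMSO and 2.35 ± 0.0217 with erinacine S at 48 h, and 3.22 ± 0.177 and 4.31 ± 1.12 at 16 h. The receptors stood in a narrower proportion to each other. Cxcr4 per Ackr3 was 1.26 ± 0.0165 and 1.26 ± 0.0959 at 16 h, and 1.43 ± 0.148 in DMSO and 1.53 ± 0.0947 with erinacine S at 48 h, where the libraries overlapped. These ratios restate the values above and were not tested.

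Over the 12 libraries Ackr3 was the gene most like Cxcr4 among named protein-coding genes. Their Pearson's r of log2 values was 0.945, and 0.551 after the group means were taken off. Cxcr4 was not in turn among the 5 such genes nearest to Ackr3, which had r of 0.954 or more. The libraries share their groups, and both receptors were chosen for the same difference, so their likeness is a description. Cxcl12 ran against both, with r = -0.827 to Cxcr4 and -0.896 to Ackr3, and r = 0.254 and -0.103 within groups. Next in likeness to Cxcr4 were Scg3, which encodes a secretory granule protein (r = 0.924), the cytochrome P450 gene Cyp4f17 (0.922), the small GTPase gene Rab2b (0.915) and the cilium gene Ttc8 (0.915). Nearest to Ackr3 were Fah, the last enzyme of tyrosine breakdown (0.965), the zinc finger genes Zfp764 (0.962) and Plag1 (0.954), Lysmd4 (0.958) and Rasl12 (0.954). The mean of Fah was 12.8 TPM in DMSO and 13.2 TPM in erinacine S at 16 h, and 5.37 and 8.72 TPM at 48 h. Nearest to Cxcl12 were the nuclear receptor gene Rora (0.965), the potassium channel gene Kcnf1 (0.963), the heparan sulfate sulfotransferase gene Hs3st1 (0.959), the small GTPase gene Rab10 (0.956) and the collagen galactosyltransferase gene Colgalt2 (0.953). With the group means taken off, likeness was lower for each of these genes. The 5 genes named for Cxcl12 then had r = 0.708 (Hs3st1) to 0.903 (Kcnf1), and the 5 named for Ackr3 had 0.41 (Lysmd4) to 0.839 (Rasl12). Those named for Cxcr4 besides Ackr3 had 0.304 (Scg3), 0.452 (Rab2b), 0.455 (Ttc8) and 0.779 (Cyp4f17).

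Genes around the 3 loci were read next. Within 500 kb of the members the table has 50 other genes, of which 9 reached the mean of 1 TPM needed for the test. None passed with erinacine S at 16 h or at 48 h, where their log2 fold changes ran from -0.59 to 0.23. For Cxcr4 the neighbours included the tRNA synthetase gene Dars at 0.08, the replication gene Mcm6 at -0.27 and the ubiquitin pathway gene Ubxn4 at 0.04 at 48 h. For Ackr3 they were Agap1, an Arf GTPase activator, at -0.02 and Cops8, of the COP9 signalosome, at -0.01. With time in DMSO 2 of the 9 rose and 1 fell, where 16.1% and 16.6% of all genes tested did. These were Agap1, up by 0.74 where Ackr3 was lower, Zranb3, up by 0.55, and Dars, down by 0.25 (limma, adjusted p = 0.00127, 0.0199 and 0.00818, n = 3 each).

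The wider pathway was read from 6 lists with 114 genes, of which 67 were tested. With erinacine S 0 of the 67 passed at 16 h and 0 at 48 h, and 1 and 7 had an unadjusted p under 0.05 (limma), where 1.29% and 8.96% of all genes did. With time in DMSO 13 rose and 12 fell, 37.3% against 32.7% of all genes tested. Of the other partners of the axis 5 of 8 were tested. Cxcl14, a chemokine that binds Cxcr4 and alters its response to Cxcl12, rose with time in DMSO, from 15.2 ± 3.65 TPM at 16 h to 78.4 ± 15.7 TPM at 48 h (SD, n = 3 each), by 2.30 ± 0.19 on the log2 scale (SE; limma, adjusted p = 1.65e-05). Erinacine S libraries of 48 h had 39.6 to 57.8 TPM of Cxcl14, all below the 63.1 to 94.5 TPM of DMSO. Of all genes tested, 8.74% lay apart in this direction, and the difference of Cxcl14 did not pass (log2 fold change -0.75 ± 0.19, limma, adjusted p = 0.224). Cd74, the surface receptor of Mif, fell with time by 1.71 ± 0.29 (limma, adjusted p = 0.00123). Mif, a cytokine that also binds Cxcr4, was the most abundant at 664 to 743 TPM per group. Hmgb1, whose protein joins Cxcl12 in a complex, stood at 16 h at 305 ± 72.9 TPM for DMSO and 198 ± 18.9 TPM for erinacine S (SD, n = 3 each), without overlap, as 1.56% of all genes did in this direction (log2 fold change -0.60 ± 0.20, SE; limma, adjusted p = 1.00). Penk, the precursor of enkephalins that Ackr3 can take up, had widely spread values at 48 h, 13.0 ± 2.88 TPM for DMSO and 23.4 ± 20.6 TPM for erinacine S (SD, n = 3 each). The median of these 5 was 0.01 at 16 h, -0.15 at 48 h and 0.05 with time in DMSO, where all genes had 0.01, 0.01 and -0.03. It rested on single libraries: at 16 h it was -0.06 without DMSO replicate 1 and 0.02 without erinacine S replicate 2, and at 48 h -0.02 without DMSO replicate 1 and -0.21 without DMSO replicate 2. With time it was -0.11 without DMSO 16 h replicate 3 and 0.16 without DMSO 48 h replicate 2, so at 16 h and with time it has no settled sign. The protease gene Dpp4, which clips Cxcl12, the Ackr3 ligand Cxcl11 and Adm, whose peptide Ackr3 removes, had a mean under 1 TPM in every group. Hmgb1 and Mif have near-identical pseudogenes, and Hmgb1 also overlaps Uspl1 on the other strand (mean 31.8 TPM), so their values are uncertain.

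Among genes that carry the Cxcr4 signal, calls were made with time and not with erinacine S. Of 23 tested, 9 rose with time in DMSO and none fell, where 16.1% of all genes rose and 16.6% fell (limma; median 0.14, against -0.03 for all genes). Among them were the inhibitory G protein subunit gene Gnai1, at 58.8 ± 1.98 TPM and then 105 ± 4.77 TPM (SD, n = 3 each), a rise of 0.82 ± 0.09 on the log2 scale (SE; limma, adjusted p = 1e-04) and the phospholipase gene Plcb1 at 0.59. Plcb1 overlaps Gm14036 on its own strand (mean 24.6 TPM) and is uncertain. Gnao1, Gnb1, Gnb2, Crk and Stat3 rose by 0.24 to 0.39. With erinacine S none of the 23 passed at either time (medians 0.01 and -0.01, and between -0.04 and 0.03 with any library left out), and among the closest by unadjusted p at 16 h were Gng2 at 0.08 ± 0.09 and Stat3 at -0.11 ± 0.12 (SE). Without DMSO 16 h replicate 1 the median with time was 0.19.

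Of 18 tested genes that switch the receptors off or sort them, 1 rose and 1 fell with time in DMSO. Among all genes tested 16.1% rose and 16.6% fell. The arrestin gene Arrb1 rose by 0.41 ± 0.10 and Usp8, a ubiquitin protease of endosomes, fell by 0.32 ± 0.07 (SE, n = 3 each; limma, adjusted p = 0.00906 and 0.00653). Arrb2, the other arrestin gene listed, stood at -0.10 ± 0.06 (SE) and did not pass. None of the 18 passed with erinacine S, and the medians were -0.01 at both times, between -0.04 and 0.03 with any library left out. The receptor kinase gene Grk2 and Itch, the ubiquitin ligase that marks Cxcr4 for breakdown, stood at -0.06 and 0.00 at 48 h. Rgs4, which shortens G protein signals, stood at 48 h at 38.0 to 48.8 TPM in DMSO and at 14.0 to 31.9 TPM with erinacine S. Its difference did not pass (log2 fold change -1.11 ± 0.28, SE, limma, adjusted p = 0.216). Its groups did not overlap, as for 3 of the 18 genes and 8.74% of all genes tested in this direction. At 16 h the nearest by unadjusted p were Rgs4 at -0.36 ± 0.28, Rgs2 at -0.29 ± 0.23 and Stam at -0.07 ± 0.07 (SE).

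Of 10 transcription factors tied to these genes 7 were tested, and none passed with erinacine S. Lhx6, which in interneurons acts upstream of Ackr3 and also marks those cells, stood at 68.1 to 85.9 TPM in DMSO and at 82.3 to 174 TPM with erinacine S at 48 h, overlapping (log2 fold change 0.55 ± 0.22, SE; limma, adjusted p = 0.494). Hif1a and Nrf1, whose proteins can drive Cxcr4, stood at -0.05 and -0.11 at 48 h. Eomes, the intermediate progenitor factor, fell with time in DMSO, from 33.4 ± 9.89 TPM at 16 h to 8.93 ± 0.828 TPM at 48 h (SD, n = 3 each; limma, adjusted p = 0.0017), while Cxcl12 rose, and Rela fell by 0.24. Of the 7, 2 fell and none rose, where 16.6% and 16.1% of all genes tested did. At 16 h the nearest by unadjusted p were Rela at -0.06, Yy1 at -0.03 and Hif1a at 0.02. The medians were -0.02 at 16 h, -0.06 at 48 h and -0.20 with time in DMSO. Leaving out DMSO 16 h replicate 2 turned the first to 0.03, leaving out erinacine S 48 h replicate 1 brought the second to 0.00, and the third was -0.11 without DMSO 16 h replicate 1.

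Other chemokine receptors were nearly absent: 20 of 21 had a mean under 1 TPM over the 12 libraries. The exception, Ackr1 at 22.6 ± 4.35 TPM in DMSO at 16 h and 36.0 ± 0.249 TPM at 48 h (SD, n = 3 each), overlaps Cadm3 on the same strand, a neuronal adhesion gene with a mean of 163 TPM, so its value is uncertain. Among 32 other chemokine ligands 13 were tested, 8 of which fell with time in DMSO and 1 of which rose, with a median of -1.39, where 16.6% of all genes fell and 16.1% rose. Cxcl10, an interferon-induced chemokine, fell with time from 16.4 ± 3.02 TPM down to 0.239 ± 0.132 TPM (SD, n = 3 each; limma, adjusted p = 2.54e-07). The inflammatory chemokines Ccl5, Cxcl2, Ccl3, Ccl2, Ccl4 and Ccl7 fell too, with log2 fold changes of -3.01, -2.39, -2.25, -1.88, -1.62 and -1.39, and the membrane-bound Cxcl16 fell by 0.90, which is uncertain since Zmynd15 overlaps it on the other strand at a mean of 1.75 TPM. Cx3cl1, the membrane-bound chemokine of neurons, rose in the same libraries as Cxcl12, with 10.6 ± 0.123 TPM at 16 h and 22.3 ± 1.53 TPM at 48 h (SD, n = 3 each), by 1.00 ± 0.16 on the log2 scale (SE; limma, adjusted p = 0.000719). With erinacine S none of the 13 passed, with medians of 0.13 at 16 h and -0.11 at 48 h, and nearest by unadjusted p at 16 h were Ccl2 at 0.42 ± 0.31, Ccl7 at 0.19 ± 0.17 and Cxcl10 at 0.17 ± 0.17 (SE). The median with time depended on the added constant, at -1.84 with 0.1 and -0.47 with 5 in place of 1, and was -1.93 for ligands with a mean of at least 5 TPM. The medians with erinacine S had no settled sign. At 16 h the median was -0.02 without DMSO replicate 2, -0.05 without DMSO replicate 3, -0.07 without erinacine S replicate 1, 0.21 without DMSO replicate 1 and -0.06 with library weights. At 48 h it was 0.02 without erinacine S replicate 1, -0.004 without DMSO replicate 2, -0.205 without erinacine S replicate 2 and -0.39 with a constant of 0.1.

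**Figure D3:**
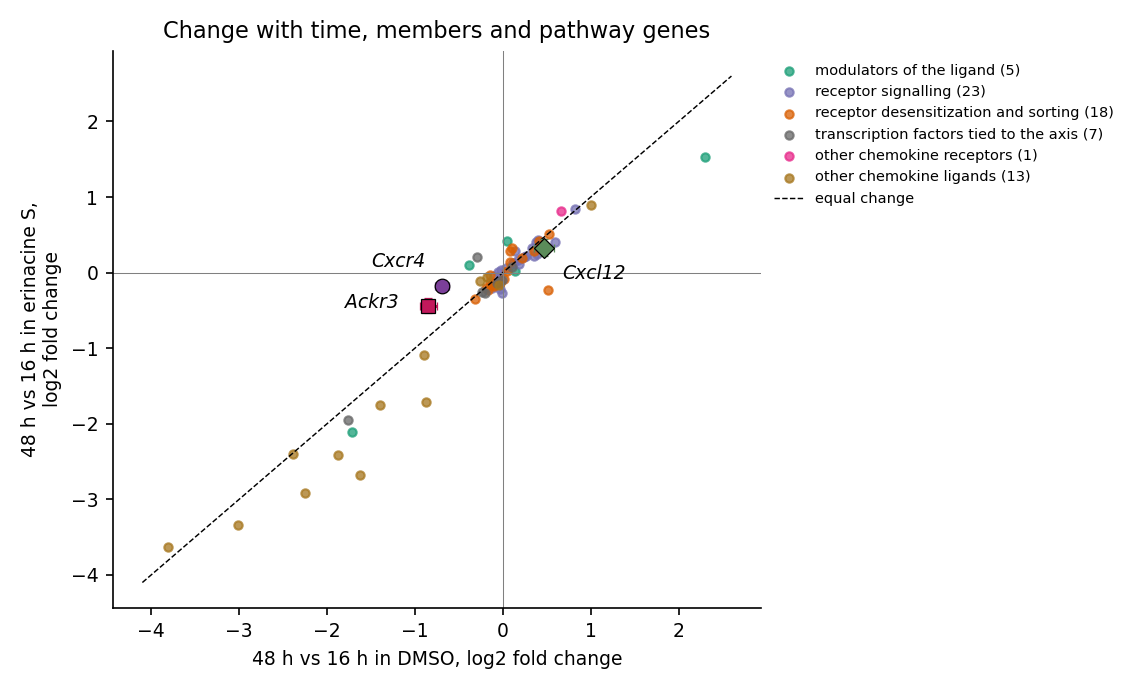
Log2 fold change from 16 h to 48 h in DMSO (horizontal axis) and in erinacine S (vertical axis) for the 3 members, with SE, and the 67 tested pathway genes, coloured by list. Cxcr4 at -0.70 and -0.18 and Ackr3 at -0.85 and -0.44 lie above the line of equal change.

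Markers of the cells that can carry the receptors or make the ligand were read beside these results, and their part in them was not tested. Of the 18 interneuron markers none passed with erinacine S at 48 h, with 9 positive and 9 negative values and a median of -0.03. Their sum was 1307 to 1686 TPM in DMSO and 1141 to 2348 TPM with erinacine S, and in erinacine S replicates 2 and 3, where Cxcr4 stood at 28.2 and 27.4 TPM, it was 1148 and 1141 TPM, below all DMSO libraries of that time. The sum leans on its largest member, Sst, which stood at 371 to 653 TPM in DMSO and at 241 to 1019 TPM with erinacine S. With time in DMSO, where 16.1% of all genes tested rose and 16.6% fell, Slc32a1, the transporter of inhibitory transmitters, rose by 0.90 while 3 markers fell, among them the interneuron transcription factors Dlx2 and Dlx5 by 0.88 and 0.71 (limma, adjusted p = 0.0154, 0.00123 and 0.00447, n = 3 each). The 10 Cajal-Retzius markers, 7 of them tested and led by Tbr1, which projection neurons also express, summed to 245 to 280 TPM in DMSO and 251 to 297 TPM with erinacine S at 48 h, none of the 7 passing. Tbr1 made up most of that sum, and the lower markers of these cells did not run together. Ebf3, a transcription factor, stood at 3.23 ± 0.319 TPM in DMSO at 16 h and 0.561 ± 0.283 TPM at 48 h, and Nhlh2, another, at 4.40 ± 0.130 and 1.95 ± 0.359 TPM (SD, n = 3 each). Both fell with time in DMSO, where the receptors were lower too (log2 fold changes -1.45 and -0.88; limma, adjusted p = 0.000898 and 0.00111). With erinacine S at 48 h Ebf3 had 0.988 ± 0.812 and Nhlh2 2.80 ± 0.737 TPM, overlapping DMSO (log2 fold changes 0.29 and 0.35; limma, adjusted p = 0.745 and 0.509). Trp73, the p53 relative that marks these cells, was under the mean needed for the test, at 0.0983 to 0.243 TPM in DMSO and 0.290 to 0.889 TPM with erinacine S at 48 h, without overlap (10.5% of all genes tested in this direction), and at 0.810 and 1.11 TPM on average at 16 h. Of the 7 tested, 3 fell with time in DMSO, Tbr1 the third, and 2 rose, the secreted protein gene Reln and the calcium-binding protein gene Calb2. With erinacine S at 48 h the 7 were split, 4 positive and 3 negative, with a median of 0.01. The negative ones were Reln at -0.25, Calb2 at -0.10 and Ndnf, a marker of low level, at -0.34. For projection neurons none of 11 passed at 48 h, with sums of 5009 to 5442 and 4794 to 5230 TPM.

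Microglia, which can carry Cxcr4, had a marker sum of 22.8 to 31.5 TPM in DMSO and 1.60 to 13.3 TPM with erinacine S at 48 h, led by Ctss, a lysosomal protease. Of 6 tested markers C1qc, a complement subunit, fell by 1.48 ± 0.24 (SE, n = 3 each; limma, adjusted p = 0.0413), where 0.115% of all genes fell. Oligodendrocyte precursors, led by Olig1, summed to 219.5 to 259.9 TPM in DMSO and 58.5 to 216 TPM with erinacine S, none of 7 passing. In both lists all treated libraries lay below all controls, as 8.74% of single genes tested did. For oligodendrocyte precursors replicates 2 and 3, at 206.2 and 216.3 TPM, lay just below the lowest control at 219.5 TPM. Replicate 1 stood far lower, at 58.5 TPM. Radial glia, led by Fabp7, summed to 739 to 789 TPM in DMSO and 249 to 809 TPM with erinacine S, none of 9 passing, and astrocytes, led by Slc1a3, to 116 to 132.5 TPM and 46.2 to 142.5 TPM, none of 6 passing. Dividing cells, led by Pcna, had 262 to 277 TPM and 136.5 to 263 TPM, none of 8 passing. With time in DMSO, where the receptors were lower, the sums of radial glia, astrocytes and oligodendrocyte precursors were higher. Oligodendrocyte precursor markers stood at 58.0 to 117 TPM at 16 h and 6 of 7 rose, against 16.1% of all genes tested. Radial glial markers stood at 448 to 538 TPM at 16 h, with 3 of 9 rising and 1 falling by 48 h (16.1% and 16.6% of all genes). The higher radial glial sum leaned on Fabp7, at 131.4 to 158.2 TPM in DMSO at 16 h and 374.5 to 449.9 TPM at 48 h. Of the 9 log2 fold changes with time in DMSO, 5 were positive and 4 negative. Vim, Sox2 and Pax6 had lower means at 48 h (178.5, 89.28 and 12.54 TPM) than at 16 h (198.6, 96.03 and 18.57 TPM), none passing. Astrocyte markers stood at 63.2 to 84.2 TPM at 16 h, none of 6 passing. The microglial sum at 16 h was 26.0 to 49.4 TPM, and Ctss fell.

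Markers of vessels and meninges, which make Cxcl12 in the brain, were low. Meningeal fibroblast markers, led by Dcn, were summed over 9 genes. At 48 h they stood at 4.09 to 5.32 TPM in DMSO and 0.636 to 3.07 TPM with erinacine S, 2 being tested and none passing. Cxcl12 was lower there too, but not library by library. Replicate 1 had the lowest sum, 0.636 TPM, and the highest treated Cxcl12, 8.705 TPM. Replicates 2 and 3 had sums of 3.07 and 2.06 TPM and Cxcl12 at 7.337 and 7.816 TPM. In DMSO at 16 h the sum was 4.66 to 6.56 TPM, overlapping that of 48 h, while Cxcl12 rose with time. Mural cell markers, led by Acta2, summed to 14.5 to 21.9 TPM and 3.46 to 18.99 TPM, 2 of 7 tested and none passing. Endothelial markers, led by Pecam1, summed over 9 genes to 0.983 to 1.28 TPM and 0.596 to 1.12 TPM, and none reached the mean of 1 TPM needed for the test. Intermediate progenitors, led by Gadd45g, summed in DMSO to 116.5 to 173 TPM at 16 h and 66.5 to 69.03 TPM at 48 h, Eomes, Neurog2 and Btg2 of 5 tested markers falling (log2 fold changes -1.76, -1.16 and -0.76; 16.6% of all genes fell), and stood at 33.0 to 70.8 TPM with erinacine S at 48 h. With time in DMSO the meningeal Dcn fell by 1.51 while Bgn rose by 1.05. No marker of the 12 lists was at 0 in all libraries.

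**Figure D4:**
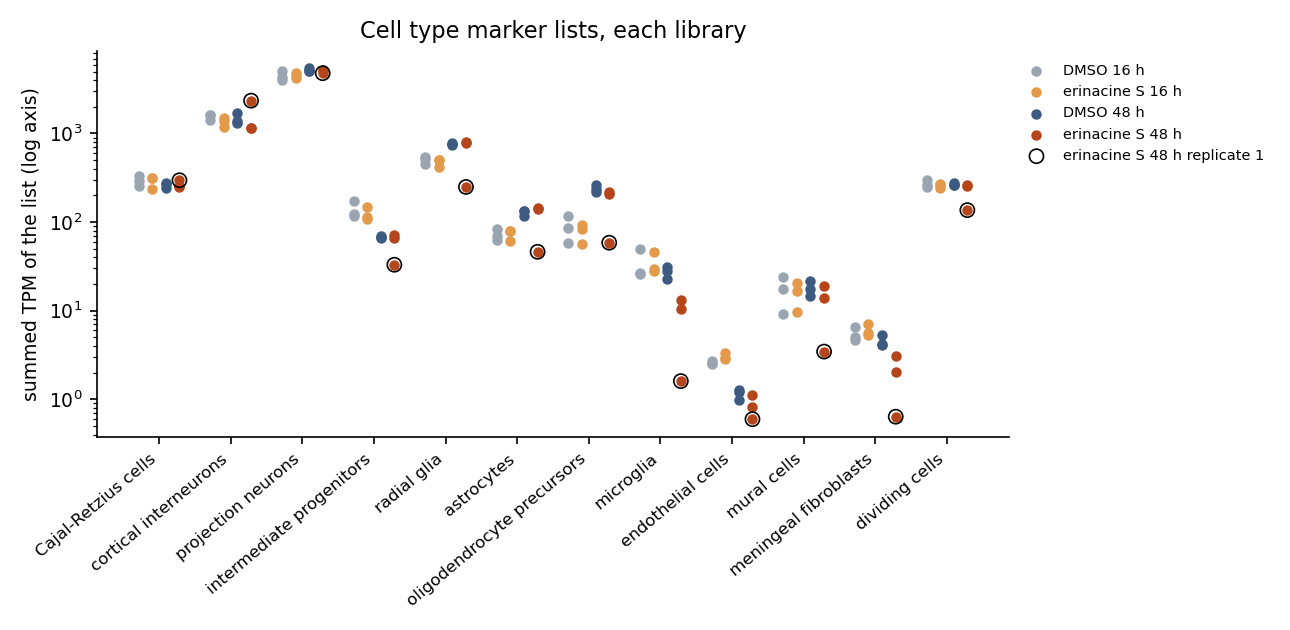
Summed TPM of 12 cell type marker lists (vertical axis, log scale) in each library, by list (horizontal axis) and coloured by group, with a ring around erinacine S 48 h replicate 1. Microglial sums are 1.60 to 13.3 TPM with erinacine S at 48 h and 22.8 to 31.5 TPM in DMSO.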

How the data were processed

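RNA of the 12 samples was sequenced with a strand-specific kit, per the labels' protocols. The submitters' processing notes name bcl2fastq 2.20, Trimmomatic 0.36, FastQC, HISAT2, SAMtools, StringTie 2.1.3 and the build GRCm38.p5, without order or settings. Annotation release and strand setting: not given in the sources used here. Values deposited by the authors are TPM, with 0.0001 written for 0. TPM keep no depth, so precision is the spread between libraries.

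Groups and replicate numbers came from the sample titles. Genes with a mean of at least 1 TPM were fitted in 1 model of 4 group means on log2(TPM + 1), which understates changes of low genes, by limma 3.58.1 (trend; R 4.3.3), two-sided, with Benjamini-Hochberg adjustment over all genes tested and a threshold of 0.05. The fit was tested only on simulated data, with independent noise and changes larger than those of the members at 16 h. Those data had no paired libraries and none standing apart, so the simulation does not bear on either. The members and lists were chosen with earlier results of these data known. Named genes are the members, list members that passed or, where none did, the 3 with the smallest p at 16 h, the 5 most like each member by Pearson's r, leading markers and the genes beside the threshold at 48 h. Others (Mif, Penk, Dpp4, Cxcl11, Adm, Grk2, Itch, Nrf1, Lhx6, the loci's neighbours, markers that passed, and Cxcl14, Hmgb1 and Rgs4 where they did not pass) were named by role, position or after their values were seen. Ebf3, Nhlh2, Trp73, Ndnf, Arrb2, Vim, Sox2 and Pax6 were also named after their values were seen. The change of the receptors with time in DMSO was fitted as a test, but its p-values are left out, since the DMSO 48 h libraries took part in the choice. A few genes the rule names are not reported here.

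Same-numbered DMSO and erinacine S libraries of 16 h deviated together from their group means (r across genes of 0.480, 0.185 and 0.510), which by a rule of over 0.1 for each pair was taken as pairing. Those of 48 h did not (-0.022, 0.107 and -0.192). Alternatives were other added constants, filters and scalings, a replicate block, robust variances, library weights, only the libraries compared, and leaving out each library. Figures were drawn with matplotlib 3.10.9.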

Additional observations from a re-analysis of the deposited data

How the results depend on the processing

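Each of the 3 members kept its direction under all alternatives run, and none crossed the threshold where it was tested. Left out in turn, single libraries gave 0.45 to 0.50 for Cxcl12, -0.76 to -0.64 for Cxcr4 and -0.91 to -0.79 for Ackr3 with time in DMSO (limma, adjusted p at most 0.036 for Cxcl12), and -0.27 to -0.06, 0.12 to 0.24 and 0.12 to 0.25 with erinacine S at 16 h. At 48 h they gave -0.36 to -0.25, 0.67 to 0.73 and 0.52 to 0.65, and in the same order the effect at 48 h minus that at 16 h was -0.25 to -0.04, 0.47 to 0.59 and 0.34 to 0.47. With a constant of 5 the differences at 48 h were -0.22 for Cxcl12, 0.60 for Cxcr4 and 0.47 for Ackr3, and the effect of Cxcr4 at 48 h minus that at 16 h was 0.44. With library weights that quantity was 0.43 for Cxcr4 and -0.28 for Cxcl12. The count of genes passing with time in DMSO was 5107, and 3401 to 4585 with a library left out, lowest without DMSO 48 h replicate 1. At 16 h it was 0, also with each library left out, and 2 with no filter on low values. With the replicate number as a block within each time the count at 16 h was 0 and Cxcr4 stood at 0.18 (limma, adjusted p = 1.00), and over all libraries the block gave 5173 genes with time in DMSO. The block changed no call of a member or of these counts by over 1.5 times. Scaling moved the median of all genes by less than 0.1. TPM give no depth, so counting error could not be set beside the spread.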
